A study of Mus musculus with 6 samples.

Results

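The genes described here encode the alpha and beta tubulins of mouse nephron progenitors. They are 10 of the 27179 entries in the deposited table, taken by name: the alpha tubulin genes Tuba1a, Tuba1b, Tuba1c and Tuba4a, and the beta tubulin genes Tubb2a, Tubb2b, Tubb3, Tubb4b, Tubb5 and Tubb6. They were picked with the difference between genotypes in these libraries already known, and Tuba1b was among the largest rises of the whole table. Their values in that comparison are therefore a description, without a test of their own.

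RNA was sequenced from Six2+ nephron progenitors, the stem-like cells that give rise to the nephrons, sorted from E16.5 mouse embryonic kidneys on a green fluorescent reporter driven by Six2. Controls were Six2TGC, which carry the transgene that drives the reporter and Cre recombinase in these cells. Mutants were Six2TGC;miR-17~92fl/fl, with the same transgene and floxed alleles of the microRNA cluster miR-17~92. There were 3 control and 3 mutant libraries, all made from progenitors pooled from 4 embryos. Both genotypes carry Cre, no floxed allele is named for the controls, and no strain background is given, so the deletion and any background carried with the floxed copies cannot be told apart. The labels name no batch.

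Depth, as recovered from the RPKM values, ran from 27602025 to 36134381 reads per library, where a read may be a read or a read pair. Reads recovered on the entries summed to between 99.71% and 99.76% of it, so this depth stands for reads counted on genes. Mir17, an entry inside the deleted cluster, had 31, 26 and 16 reads in control libraries and 2, 0 and 0 in mutant libraries. Mir17hg, the entry of the cluster's host transcript, was higher in the mutants, at 44.0 ± 9.71 RPKM in the controls and 212 ± 41.1 in the mutants (SD, n = 3 each, limma adjusted p = 4.93e-05). All 8 nephron progenitor markers were measured. Their sum lay between 680.4 and 738.2 RPKM in the controls and between 529.9 and 623.1 in the mutants. Of the 8, 1 had a limma adjusted p under 0.05, where 3.13% of all tested genes did. At an unadjusted p under 0.05, 4 were lower in the mutants and 1 higher, where 13.7% of all tested genes were lower and 5.94% higher. Run on whole reads, limma's voom called 2 of the 8, Crym and Meox1, both lower, and 5.1% of all tested genes. RPKM is the read count divided by gene length and by library depth, which puts different genes on the same scale. For genes that share sequence, levels also depend on how reads that match several places were counted, which is not given. In sorted cells that were pooled, fewer cells of a type and less RNA per cell cannot be told apart. Mitochondrial ribosomal RNA took 27.0% to 30.4% of the recovered depth in the controls and 32.2% to 38.2% in the mutants. With these reads left out of the depth, Tuba1b and Tubb5 still had a limma adjusted p under 0.05, with log2 fold changes of 2.11 and 0.85.

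Alpha and beta tubulin form a dimer, and dimers join end to end and side by side into microtubules, which carry chromosomes in mitosis, cargo in the cytoplasm and the core of the primary cilium. Mammals have several genes for each subunit, which encode closely similar proteins and differ in the tissues that use them. The coding sequences of the alpha genes are so alike that short reads from one can match another, and the genome also holds many processed copies of tubulin messages.

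The stretch of coding sequence below is shown because it sets Tubb5, the beta gene with the highest level, apart from 3 other beta genes. It gives bases 601 to 720 of each coding sequence, 5′ to 3′ on the sense strand, from GENCODE M21 transcripts (GRCm38, the same assembly as mm10). Capitals mark bases that differ from Tubb5.
Tubb5: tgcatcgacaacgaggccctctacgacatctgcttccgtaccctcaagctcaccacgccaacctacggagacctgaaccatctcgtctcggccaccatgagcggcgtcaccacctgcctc
Tubb4b: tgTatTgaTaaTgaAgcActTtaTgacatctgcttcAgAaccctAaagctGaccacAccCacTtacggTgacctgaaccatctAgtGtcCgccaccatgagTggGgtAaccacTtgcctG
Tubb2a: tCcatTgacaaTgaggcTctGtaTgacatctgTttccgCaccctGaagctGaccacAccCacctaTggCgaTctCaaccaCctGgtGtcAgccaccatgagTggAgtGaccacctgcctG
Tubb2b: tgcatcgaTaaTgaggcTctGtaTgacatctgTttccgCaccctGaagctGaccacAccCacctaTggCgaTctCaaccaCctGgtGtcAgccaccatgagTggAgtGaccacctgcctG
Tubb4b and Tubb2a each differed from Tubb5 at 24 of the 120 bases and Tubb2b at 23. In each of these 3 genes, 23 of the differences fell on the last base of a codon.

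Tuba1a, Tuba1b and Tuba1c were closer to each other than Tubb5 was to these beta genes. Over whole coding sequences, Tuba1b was 98.37% identical to Tuba1c and 98.30% to Tuba1a, and 85.88% to Tuba4a. Of 2 alpha tubulin pseudogenes in the table, Gm5620 was 98.44% and Gm6682 96.81% identical to Tuba1b. Among the beta genes, Tubb2a and Tubb2b were 96.49% identical, whereas Tubb5 was between 80.67% and 84.79% identical to Tubb6, Tubb4b, Tubb2b and Tubb2a.

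The share of a transcript that a read cannot place was measured as the percent of its windows of 100 bases that occur, on either strand, in a transcript of another gene. It was 73.0% for Tuba1b, 65.9% for Tuba1a, 53.4% for Tuba1c and 46.7% for Tuba4a. For Tubb2a it was 36.9%, for Tubb4b 30.6% and for Tubb2b 27.8%. No window of 100 bases of Tubb3, Tubb5 or Tubb6 was shared. Within the coding sequence of Tuba1b the share was 90.9%. With windows of 31 bases, 86.1% of Tuba1b and 4.47% of Tubb5 were shared, and part of the latter was a short repeat in the 3′ UTR. Tuba1b shared 48.6% of its windows of 100 bases with Tuba1c and 27.3% with Tuba1a. Of the pseudogenes in the table it shared 19.9% with Gm6682 and 16.1% with Gm5620. Other annotated copies, for which no table entry was matched, shared up to 32.6%.

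**Figure D1:**
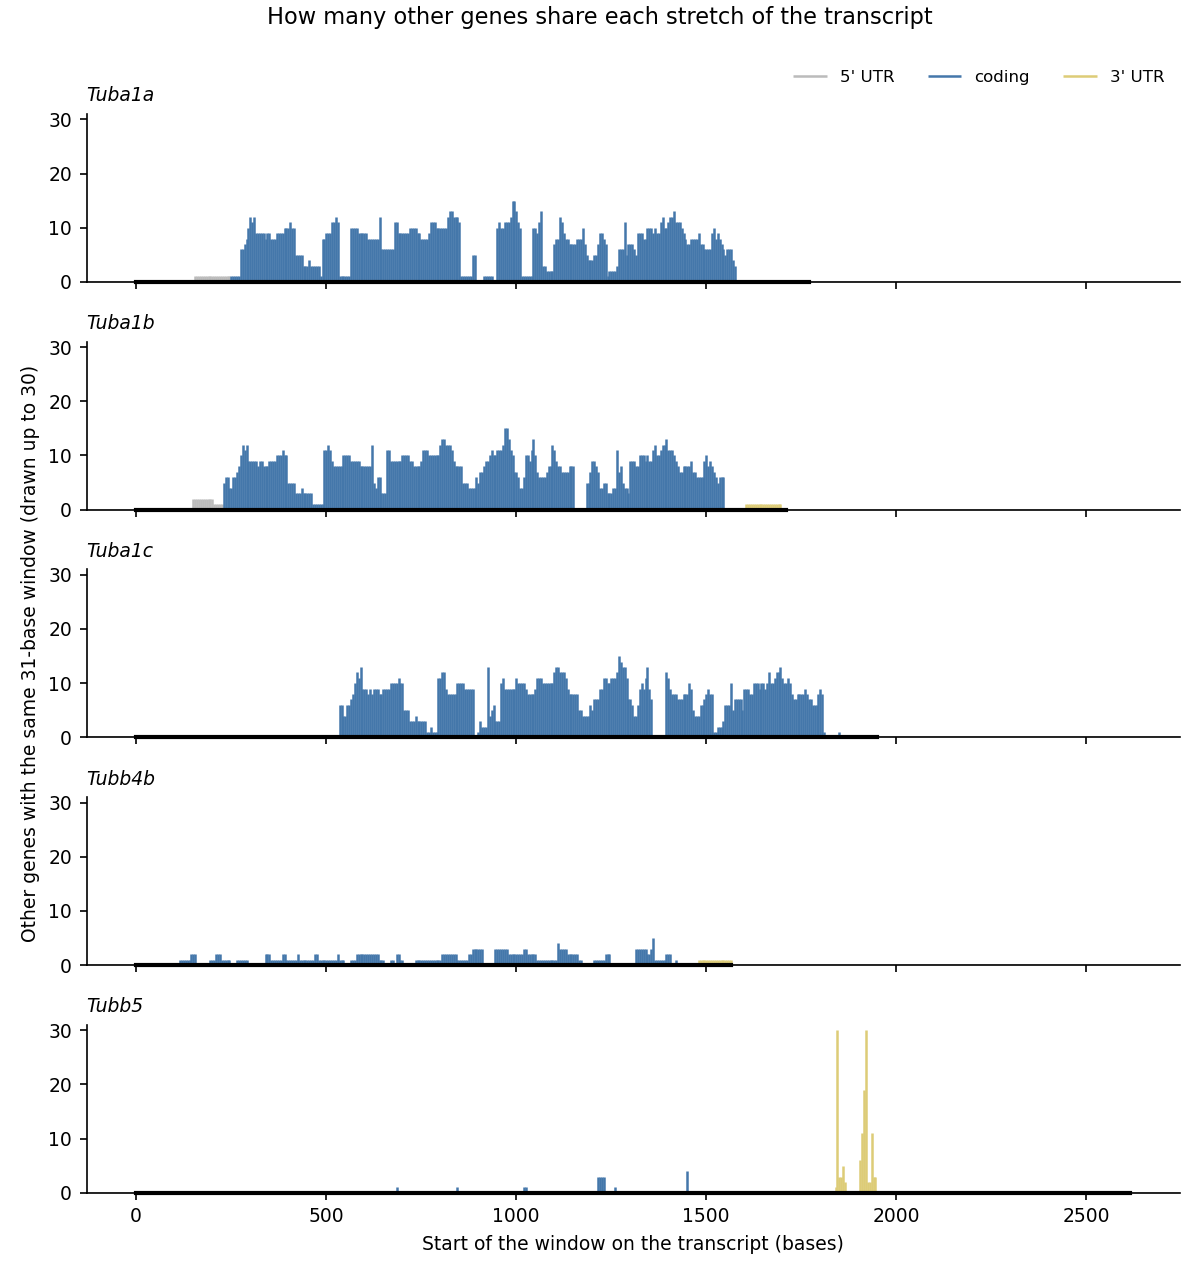
Number of other genes whose transcripts hold the same 31-base window (vertical axis, drawn up to 30), by the start of the window on the transcript in bases, for 3 alpha and 2 beta tubulin genes, with the 5′ UTR, coding sequence and 3′ UTR in different colours. The coding sequences of Tuba1a, Tuba1b and Tuba1c are covered nearly throughout, whereas Tubb5 has a few short stretches and a repeat in its 3′ UTR.

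Of the 10 tubulin genes, 8 had a mean of at least 0.5 RPKM and entered the limma fit over 13463 genes. In that fit 2 of the tubulin genes, Tuba1b and Tubb5, passed the threshold (adjusted p under 0.05), both higher in the mutants, and 6 did not pass. Of all tested genes, 3.13% passed, 1.32% as higher and 1.81% as lower in the mutants. None of the tubulin genes passed as lower, and at an unadjusted p under 0.05 limma gave 3 higher (Tuba1b, Tubb5 and Tuba1c) and 0 lower, where 5.94% of all tested genes were higher and 13.7% lower at that threshold. limma's voom, run on whole reads, also gave 2 higher and 0 lower, where it called 5.1% of all tested genes. The mutant libraries lay wholly above the controls for 3 of the 8 (Tuba1b, Tuba1c and Tubb5), wholly below for 1 (Tuba1a), and overlapped them for 4. Of all tested genes, 25.1% had groups that did not overlap, 7.06% with mutants wholly above and 18.0% wholly below. The median log2 fold change, mutant over control, was 0.23 over the 8 and -0.12 over all tested genes. Since the genes were picked on this contrast, nothing is read from these shares.

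**Figure D2:**
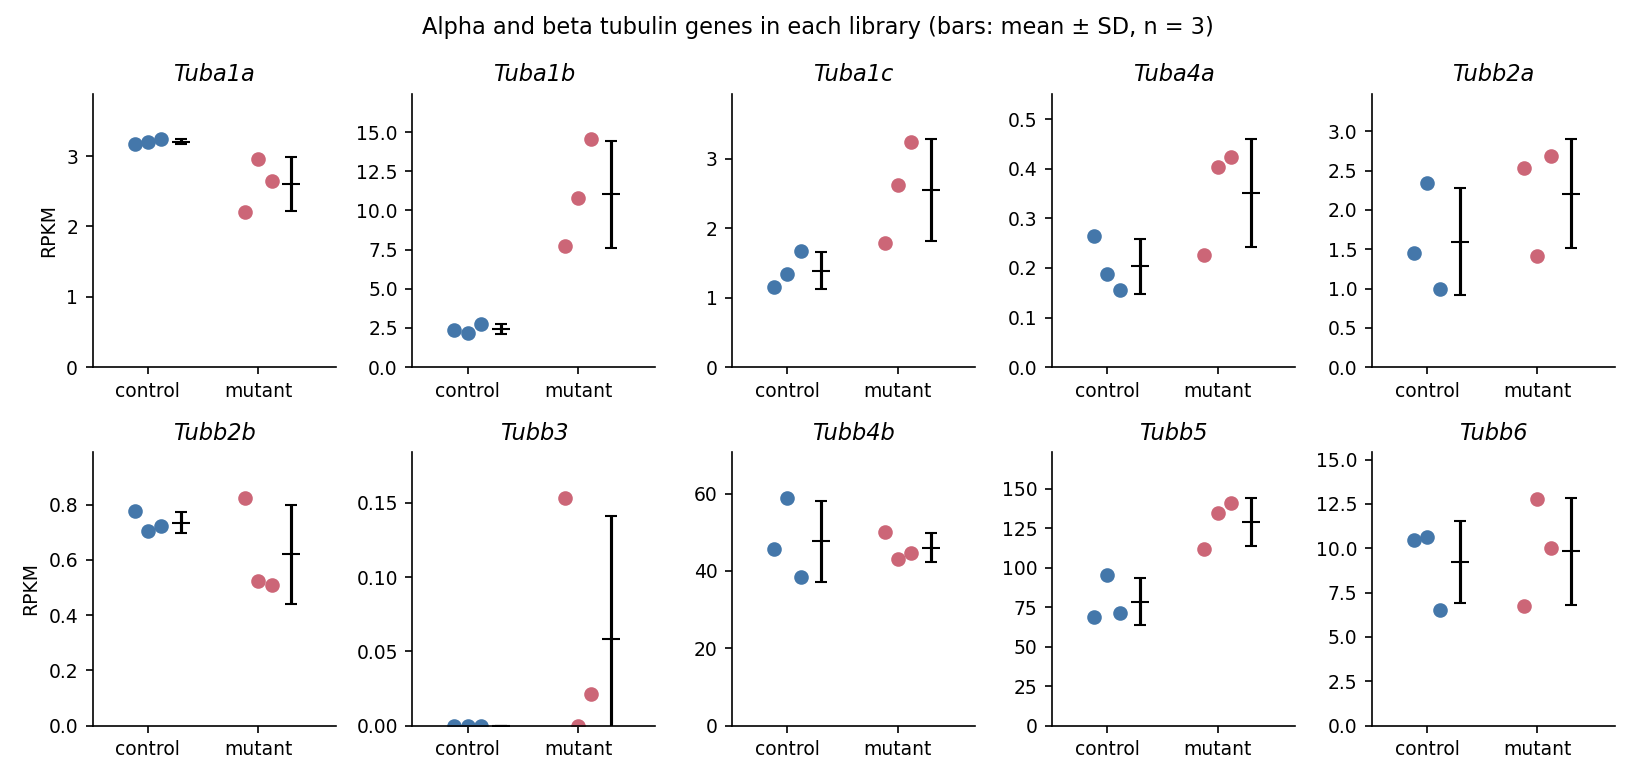
Level in RPKM (vertical axis, from 0, on a scale of its own for each gene) of the 10 tubulin genes in each of the 3 control and 3 mutant libraries (points), with mean ± SD beside each group. The mutant points lie above all control points for Tuba1b, Tuba1c and Tubb5 and below them for Tuba1a.

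Tuba1b (Entrez Gene 22143, chr15:98931429-98934390, GRCm38) encodes an alpha tubulin made in most cell types. The control libraries had 2.39, 2.16 and 2.75 RPKM, the mutant libraries 7.71, 10.8 and 14.5. Every mutant library was above every control, and the mutants spread more widely than the controls. The means were 2.43 ± 0.299 and 11.0 ± 3.42 RPKM (SD, n = 3 each), and the log2 fold change was 1.94 ± 0.21 (SE). In reads, 353 fell on the gene in the controls and 1462 in the mutants. The ratio of read rates was 4.53, with an exact 95% binomial interval of 4.03 to 5.11 that covers counting error only.

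Tuba1c (Entrez Gene 22146, chr15:99029891-99038105) lies near Tuba1b on the same chromosome and is also broadly used. Control levels were 1.15, 1.34 and 1.67 RPKM, and mutant levels were 1.79, 2.62 and 3.24 RPKM. The groups did not overlap, although the highest control lay close to the lowest mutant. The log2 fold change was 0.67 ± 0.21, and it did not pass the threshold.

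Tuba1a (Entrez Gene 22142, chr15:98949847-98953501), the main alpha tubulin of growing neurons, was measured at 3.18, 3.20 and 3.24 RPKM in the controls. The mutants had 2.20, 2.96 and 2.64 RPKM. All 3 were below the controls, which differed little among themselves, and the log2 fold change of -0.26 ± 0.16 did not pass. Of the 3 alpha genes with near-identical coding sequences, Tuba1a was thus the one with lower mutant levels. No window of 31 bases in the 3′ UTR of Tuba1a or of Tuba1c was shared with another gene. The level is that of the whole gene, and 65.9% of the windows of 100 bases of the Tuba1a transcript were shared.

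Tuba4a (Entrez Gene 22145, chr1:75214972-75221261) encodes an alpha tubulin that, unlike the others, is made without a C-terminal tyrosine. It had 16, 14 and 9 reads in control libraries and 14, 23 and 24 in mutant libraries, under the filter of 0.5 RPKM. The groups overlapped. Its end overlaps Stk16, which accounts for all of the shared windows of 100 bases, and without a stated strand setting reads of the pair cannot be told apart.

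Tubb5 (Entrez Gene 22154, chr17:35833920-35838301), the beta tubulin most used by dividing and embryonic cells, had the highest level of the family in every library. Its control libraries had 68.7, 95.6 and 71.4 RPKM, and its mutant libraries 112, 134 and 141. The lowest mutant was above the highest control. The means were 78.5 ± 14.8 and 129 ± 15.2 RPKM (SD, n = 3 each), a log2 fold change of 0.72 ± 0.16 (SE). Reads on the gene numbered 19797 in the controls and 29147 in the mutants, and the ratio of read rates was 1.61 (exact 95% binomial interval 1.58 to 1.64). Tubb5 no longer passed the threshold when control library 1, mutant library 2 or mutant library 3 was left out, with log2 fold changes of 0.64, 0.69 and 0.66.

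Tubb4b (Entrez Gene 227613, chr2:25222158-25224702), a broadly expressed beta tubulin that is also a component of cilia, was second in level. Controls had 45.5, 58.9 and 38.4 RPKM, against 50.2, 43.2 and 44.7 for the mutant libraries. All 3 mutants lay within the range of the controls. The log2 fold change was -0.03 ± 0.16 and had the opposite sign under each of the 3 other scalings.

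Tubb6 (Entrez Gene 67951, chr18:67390731-67402749), a divergent beta tubulin, had 10.4, 10.6 and 6.55 RPKM in control libraries and 6.74, 12.8 and 9.99 in mutant libraries. The groups overlapped, and the log2 fold change was 0.08 ± 0.23, with the opposite sign when control library 3 or mutant library 2 was left out.

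Tubb2a (Entrez Gene 22151, chr13:34074278-34078008) and Tubb2b (Entrez Gene 73710, chr13:34127008-34130354) are neighbours that are abundant in brain. Tubb2a had 1.46, 2.34 and 0.996 RPKM in control and 2.53, 1.41 and 2.68 RPKM in mutant libraries, with a log2 fold change of 0.38 ± 0.26. Tubb2b had 0.777, 0.706 and 0.722 RPKM in control and 0.825, 0.524 and 0.509 RPKM in mutant libraries, with a log2 fold change of -0.15 ± 0.21. For both genes the groups overlapped, and neither passed the threshold.

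Tubb3 (Entrez Gene 22152, chr8:123411553-123422015), the beta tubulin used as a marker of neurons, had 0 reads in each control library, where up to 3 reads would still be possible. It had 8, 0 and 1 reads in the mutants. Nearly all of its reads came from mutant library 1, and the gene was under the filter.

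Ordered by mean level in the controls, Tubb5 came first with 78.5 RPKM, followed by Tubb4b (47.6), Tubb6 (9.21), Tuba1a (3.21), Tuba1b (2.43), Tubb2a (1.60), Tuba1c (1.39), Tubb2b (0.735), Tuba4a (0.203) and Tubb3 (0). Libraries of neighbours in this order overlapped for Tuba1b with Tubb2a and for Tubb2a with Tuba1c. In the mutants Tuba1b stood after Tubb5 and Tubb4b, at 11.0 RPKM, and its libraries overlapped those of Tubb6 (9.84 RPKM). The order further down was Tuba1a (2.60), Tuba1c (2.55) and Tubb2a (2.21), each overlapping the next, then Tubb2b (0.620), Tuba4a (0.351) and Tubb3 (0.0582). Where genes share sequence, their place in either order depends on how reads that match several places were counted, which is not given.

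**Figure D3:**
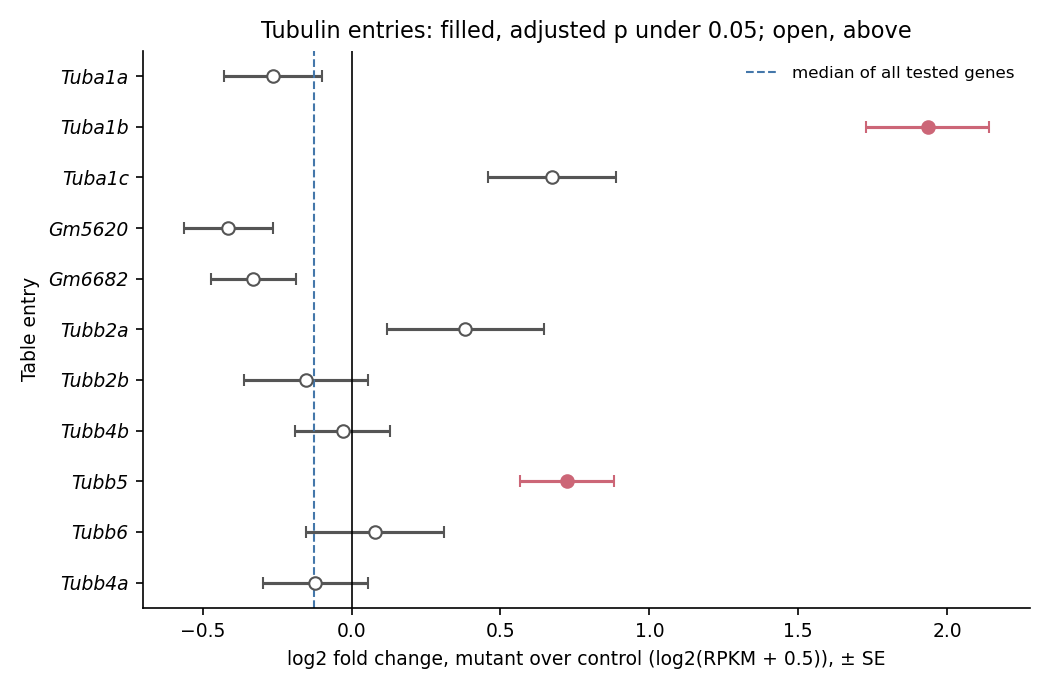
log2 fold change of mutant over control, on the log2(RPKM + 0.5) scale, ± SE, for the 8 tested tubulin genes, 2 alpha tubulin pseudogenes and Tubb4a. Filled points passed the threshold of the limma fit, and the dashed line is the median of all tested genes (-0.12). Tuba1b (1.94) and Tubb5 (0.72) are filled, and both pseudogenes lie below 0.

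The 2 pseudogene entries carried more RPKM than any alpha gene in the controls. Gm5620 (Entrez Gene 434428, chr9:91097093-91098662) had 13.3, 15.0 and 13.4 RPKM in control libraries and 8.46, 11.0 and 11.8 in mutant libraries. Gm6682 (Entrez Gene 626534, chr12:4782069-4783611) had 12.5, 13.6 and 13.5 RPKM in control libraries and 8.96, 10.3 and 12.0 in mutant libraries. In both, all mutant libraries were below all controls, the opposite of Tuba1b. Their log2 fold changes of -0.41 ± 0.15 and -0.33 ± 0.14 did not pass the threshold (limma adjusted p = 0.172 and 0.236). Both entries were picked out after their values had been seen, for sharing at least 100 windows of 31 bases with an alpha gene of the table.

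Tuba1b rose in both RPKM and share of the alpha tubulin total. Summed over the 4 alpha genes, the control level was 6.98, 6.89 and 7.82 RPKM and the mutant level 11.9, 16.8 and 20.9 RPKM, a ratio of the means of 2.29. All mutants were above all controls. Tuba1b made up between 31.3% and 35.2% of the sum in the controls and between 64.3% and 69.8% in the mutants. Without it the sum over the other 3 alpha genes was 4.80 ± 0.246 RPKM in the controls and 5.50 ± 1.13 in the mutants (SD, n = 3 each), and the groups overlapped.

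Entries without a matched symbol, 1904 of the table, could not be searched for further pseudogenes. Summed over every alpha tubulin gene and pseudogene entry with a symbol, 10 in all, the control level was 32.8, 35.6 and 34.7 RPKM and the mutant level 29.4, 38.1 and 44.7 RPKM. Mutant library 1 was the lowest of the 6 libraries and mutant library 3 the highest, so the groups overlapped. The means were 34.3 ± 1.42 and 37.4 ± 7.68 RPKM (SD, n = 3 each), a ratio of 1.09. Counted as reads scaled to depth alone (RPM), which leaves gene length out, the sum was 50.8 ± 2.06 in the controls and 56.9 ± 12.0 in the mutants. Tuba1b was between 6.07% and 7.93% of this wider sum in the controls and between 26.3% and 32.6% in the mutants. The pseudogene entries together went from 27.1 ± 1.42 to 20.8 ± 3.21 RPKM, with all mutants below all controls. Whether reads of one alpha sequence were counted on another, and whether that differed between the genotypes, was not tested.

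**Figure D4:**
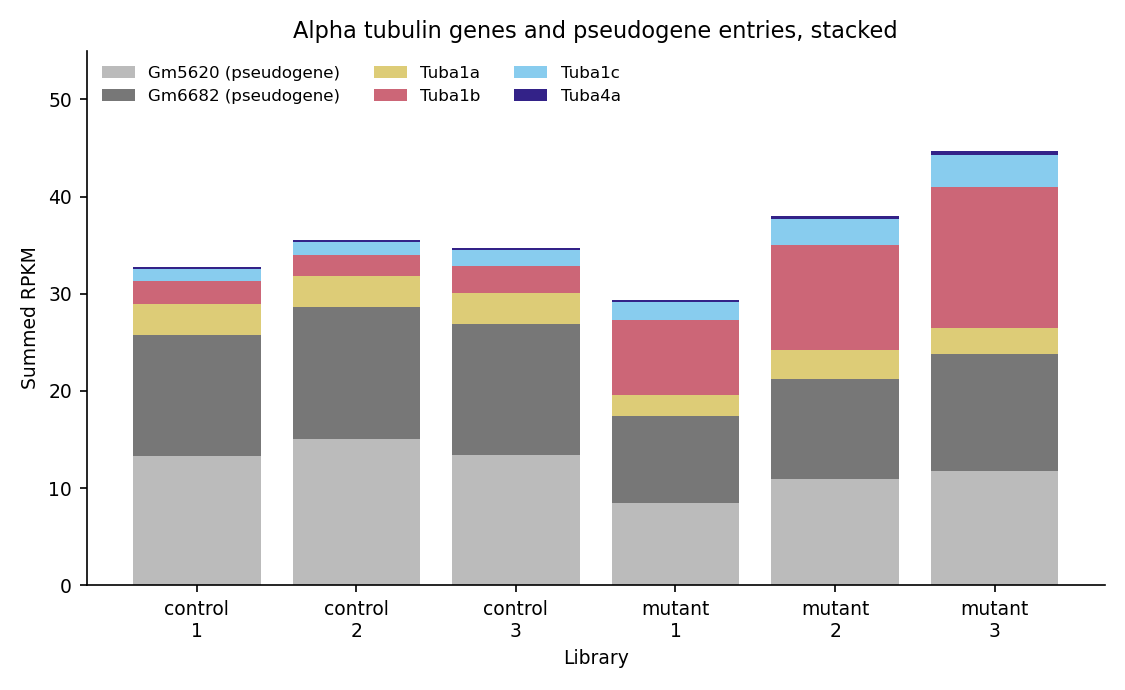
Summed RPKM (vertical axis, from 0) of 4 alpha tubulin genes and 2 pseudogene entries in each of the 6 libraries, stacked by entry. The band of Tuba1b is wider in the mutants (7.71 to 14.5 RPKM) than in the controls (2.16 to 2.75), the pseudogene bands are narrower, and the column heights of the genotypes overlap.

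The sum over the 6 beta genes was 126.9, 168.2 and 118.0 RPKM in control libraries and 172.5, 192.3 and 198.9 in mutant libraries. The lowest mutant was just above the highest control, and the means were 138 ± 26.8 and 188 ± 13.8 RPKM (SD, n = 3 each), a ratio of 1.37. Without Tubb5 the other 5 beta genes summed to 59.2 ± 13.0 RPKM in the controls and 58.7 ± 1.46 in the mutants, with overlap. Tubb5 made up 57.1% ± 3.19 of the beta sum in the controls and 68.6% ± 3.17 in the mutants, and Tubb4b 34.5% ± 1.76 and 24.7% ± 3.83. In each group of genes, then, the higher mutant sum rested on 1 gene.

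Alpha and beta tubulin proteins are used in equal numbers, but their messages were not counted at equal levels here. The ratio of the alpha sum to the beta sum over the 10 genes was 0.0541 ± 0.0127 in the controls and 0.0871 ± 0.0179 in the mutants (SD, n = 3 each). With every alpha and beta entry that has a symbol, pseudogenes included, it was 0.237 ± 0.0362 and 0.188 ± 0.0244. The first ratio was higher in all mutants than in all controls, and in the second the groups overlapped with the mutant mean lower. Both ratios depend on how reads that match several places were counted, which is not given.

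Outside the 10 genes, Tubb4a, a beta tubulin of brain, had 9.24, 10.2 and 9.75 RPKM in control libraries and 6.63, 9.53 and 11.1 in mutant libraries. The groups overlapped (log2 fold change -0.12 ± 0.18, limma adjusted p = 0.709). Tuba3a, Tuba3b, Tuba8 and Tubb1 had 1 or 2 reads each over all 6 libraries, Tubal3 had 0, and the pseudogene entry Tubb2a-ps2 had 10 reads in the controls and 9 in the mutants.

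The deleted cluster makes microRNAs, which pair through their seed with sites in 3′ UTRs and lower the level of the message. The mature sequences below, from RefSeq (GRCm38.p6), show the 4 seeds of the cluster, with the seed, bases 2 to 8, in capitals. miR-20a-5p shares the seed of miR-17-5p, and miR-19a-3p that of miR-19b-3p.
miR-17-5p: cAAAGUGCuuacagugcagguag
miR-18a-5p: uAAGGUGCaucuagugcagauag
miR-19b-3p: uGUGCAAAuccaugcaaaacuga
miR-92a-3p: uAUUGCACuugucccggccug
The matching sites were GCACTTT for miR-17-5p, GCACCTT for miR-18a-5p, TTTGCAC for miR-19b-3p and GTGCAAT for miR-92a-3p. They were searched on the message strand. The 3′ UTR used was that of the longest protein-coding transcript of a gene, and other 3′ UTRs were not searched. None of the 10 tubulin genes held any of them. Among 11540 tested genes with a 3′ UTR, 14.9%, 9.38%, 13.7% and 7.88% held the respective site, and the median 3′ UTR of tested genes was 1198 bases. The 3′ UTR of Tuba1b, at 157 bases, was short. Of 465 tested 3′ UTRs within 20% of that length, 1.51%, 0.43%, 1.51% and 0.22% held the respective site. For Tubb5, with 1061 bases, the shares among 1607 3′ UTRs of like length were 10.8%, 6.16%, 11.1% and 5.41%. The search covered these letters in these windows only.

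Genes that make, fold, bind or modify microtubules were counted in 10 lists with 102 genes, of which 87 were tested. Of these, 1 gene (Dcx) fell, 85 did not pass, and 1 (Stmn2) passed as higher after clearing the filter through the mutant libraries alone. The median log2 fold change was -0.16 against -0.12 over all tested genes. Of all tested genes, 3.13% passed, 1.32% as higher and 1.81% as lower. By voom, 5 of the 87 were called, 2 higher and 3 lower, and 5.1% of all tested genes. At an unadjusted p under 0.05, 13.7% of all tested genes were lower and 5.94% higher. All 8 subunits of the CCT chaperonin, which folds new tubulin, had log2 fold changes below the median of all genes (list median -0.31). None of them passed, and at an unadjusted p under 0.05 limma gave 1, Cct2, which went from 75.0 ± 7.83 to 59.6 ± 2.03 RPKM (SD, n = 3 each). voom gave 0 of the 8. With control library 3 left out, 6 of the 8 passed as lower (Tcp1, Cct3, Cct4, Cct5, Cct7 and Cct8), with log2 fold changes between -0.59 and -0.46. In that setting 8.04% of all tested genes passed, 813 as lower and 270 as higher, against 244 and 178 in the reported fit.

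The 8 folding cofactors and autoregulation genes had a list median of -0.20, and none passed. Limma gave 2 lower at an unadjusted p under 0.05 and voom called 1. That gene, Ttc5, whose protein binds new tubulin chains and starts the decay of their messages when free tubulin is in excess, had 15.0, 12.7 and 14.0 RPKM in control libraries and 10.8, 8.71 and 9.18 in mutant libraries. The mutants were all lower (log2 fold change -0.52 ± 0.14, limma adjusted p = 0.0739). Prefoldin, which hands new tubulin to the chaperonin, had a list median of -0.16, with 0 of 6 past the threshold, 0 at an unadjusted p under 0.05 and 0 by voom.

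Dcx, doublecortin, a protein that binds and stabilises the microtubule lattice, fell from 33.4, 28.3 and 48.1 RPKM to 17.9, 17.0 and 18.3 RPKM (log2 fold change -0.99 ± 0.18, limma adjusted p = 0.0103). The highest mutant was well below the lowest control. It was the only one of 12 tested lattice-binding proteins past the threshold, and it did not pass after quantile normalization, without the filter or without mutant library 2 (log2 fold changes -0.86, -0.99 and -0.96). voom also called Dclk1, as higher. Map1b, another lattice-binding protein, had 20.9 ± 3.50 and 18.9 ± 1.12 RPKM (adjusted p = 0.608).

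Stmn2, a stathmin, which holds tubulin dimers apart from the lattice, rose from 0.285, 0.218 and 0.168 RPKM to 1.06, 0.624 and 1.16 (limma adjusted p = 0.0409). Since it met the filter through the mutant libraries alone, its call is not independent of the filter. It did not pass without the filter or without control library 1, control library 2 or mutant library 2 (log2 fold changes 0.98, 1.04, 0.98 and 1.16), and it was under the filter without mutant library 1 or 3. Stmn2 is also a marker of neurons. Stmn1, the stathmin of dividing cells and far more abundant, had 35.6 ± 6.76 and 29.5 ± 4.18 RPKM (SD, n = 3 each), with overlap (adjusted p = 0.394).

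In the other lists none of the genes passed in limma. Their counts stand beside 13.7% of all tested genes lower at an unadjusted p under 0.05, and 5.1% called by voom. The gamma tubulin ring, which nucleates microtubules, was listed together with delta and epsilon tubulin. That list had a median of -0.16 over 12 genes, with 1 lower at an unadjusted p under 0.05 (Tubg2, adjusted p = 0.136) and 0 by voom. Tubg1, the main gamma tubulin, was at 7.49 ± 0.994 RPKM in the controls and 6.24 ± 0.176 in the mutants (adjusted p = 0.385). The plus-end proteins had a median of -0.17 over 14 genes, with 2 lower at an unadjusted p under 0.05 and 1 (Clasp2, adjusted p = 0.104) by voom, and Mapre1, which tracks growing ends, had a log2 fold change of 0.06 ± 0.15. The 8 severing enzymes had a median of -0.16, with 2 lower at an unadjusted p under 0.05 (the lowest p being that of Spast, adjusted p = 0.118) and 0 by voom. The 16 tested tubulin modification enzymes had a median of -0.10, with 2 lower (the lowest p being that of Ttll1, adjusted p = 0.0674) and 0 by voom.

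**Figure D5:**
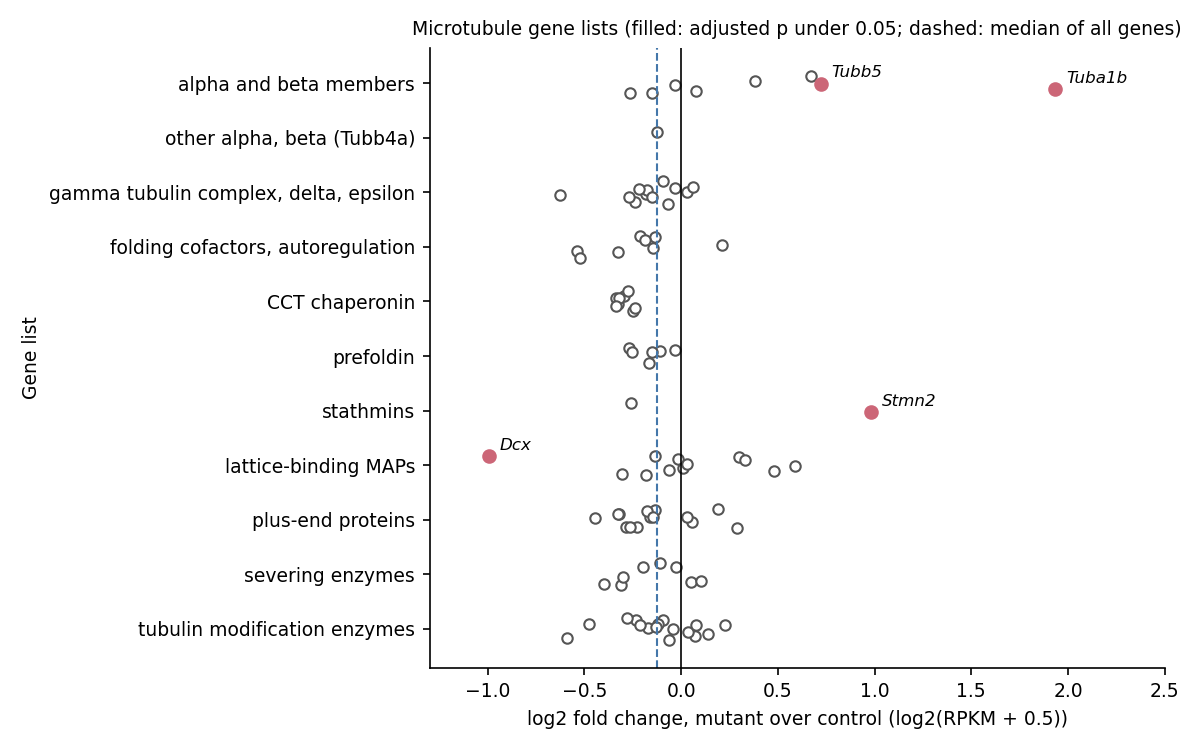
log2 fold change of mutant over control, on the log2(RPKM + 0.5) scale, of each tested gene in the tubulin family and in 10 microtubule gene lists (rows). Filled points passed the limma threshold and are named, and the dashed line is the median of all tested genes (-0.12). Only Tuba1b, Tubb5, Stmn2 and Dcx are filled, and all 8 CCT chaperonin genes lie left of the dashed line.

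Markers of other cells and states were summed in the same libraries. A list of 10 genes of cycling cells, which use Tubb5, summed to between 468.3 and 487.7 RPKM in the controls and between 504.6 and 575.7 in the mutants, without overlap. Within the mutants the sum was highest in library 1, where Tuba1b and Tubb5 were lowest. No gene of that list passed in limma, and 3 were higher at an unadjusted p under 0.05, where 5.94% of all tested genes were higher. voom called 1, Mki67 (limma adjusted p = 0.0912). Mki67 had 73.8, 62.1 and 103 RPKM in control libraries and 113, 117 and 128 in mutant libraries. Within the mutants it was thus lowest in library 1, as Tuba1b and Tubb5 were, unlike the sum. Nothing is read from these orders of 3 mutant libraries. Macrophage and leukocyte markers, 10 genes of which 5 were tested and 3 passed, summed to between 5.12 and 8.02 RPKM in the controls and between 13.2 and 15.2 in the mutants. All 5 were higher at an unadjusted p under 0.05, and voom called 2, Ctss and Fcer1g. The shares of all tested genes were 3.13% passing, 5.94% higher at that unadjusted threshold and 5.1% called by voom. Whether each of the 5 met the filter in the controls was not examined. None of these 10 genes was at 0 in all libraries. The part of cycling cells and of macrophages in the tubulin values was not tested.

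Neuron markers summed over 10 genes to between 3.21 and 5.99 RPKM in the controls and between 5.47 and 7.01 in the mutants, with overlap. The list holds Stmn2, and without it the ranges were 2.99 to 5.82 and 4.84 to 5.85 RPKM. Elavl4 made up most of that sum (2.37 to 4.68 RPKM in the controls, 3.51 to 3.88 in the mutants), and Elavl3 was at most 0.0577 RPKM. Summed interstitium markers were between 66.2 and 171.4 RPKM in the controls and between 127.4 and 213.7 in the mutants, with overlap. All 9 genes of that list had log2 fold changes above the median of all tested genes, and 0 passed. At an unadjusted p under 0.05, 4 were higher and 0 lower, where 5.94% of all tested genes were higher and 13.7% lower. By voom, 0 were called. Endothelium markers (2.54 to 4.82 and 3.86 to 4.78 RPKM) and ureteric bud markers (1.22 to 4.44 and 1.85 to 7.16 RPKM) overlapped as well.

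Tuba1a and Tuba1c lie within 250 kb of Tuba1b. Leaving these tubulin genes out, 9 other genes there were tested, and none passed in limma. At an unadjusted p under 0.05, 3 of the 9 were lower and 0 higher, and voom called 0. Of all tested genes, 13.7% were lower and 5.94% higher at that threshold, and voom called 5.1%. Their median log2 fold change was -0.15, ranging from -0.63 to 0.31. Around Tubb5, 1 of 22 passed, H2-T24, a class I histocompatibility gene named because its value stood out, at a log2 fold change of 1.47 ± 0.28 and a limma adjusted p of 0.0144. The share of all tested genes that passed was 3.13%. The median of those 22 was -0.14, ranging from -1.08 to 1.47. At an unadjusted p under 0.05, 2 of them were higher and 3 lower, and voom called 1, H2-T24. The distance was chosen after the values had been seen.

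Genes whose levels over the 6 libraries were most like the alpha sum, among 10928 genes outside the 10 with an approved symbol and a mean of at least 1 RPKM, were Dctd (Pearson r = 0.988), Kcnj16 (0.987) and Cep57l1 (0.984). For the beta sum they were Mrpl52 (r = 0.992), Serpine2 (0.986) and Tmtc1 (0.986). Kcnj16 met that mean through the mutants, with 0.237 to 0.390 RPKM in the controls and 1.00 to 3.07 in the mutants. These coefficients are on log2(RPKM + 0.5) and hold the difference between genotypes as well as the spread within each. They describe 6 libraries and were the highest of many. Dctd, for example, had 4.66, 4.78 and 5.34 RPKM in control libraries and 8.09, 8.95 and 12.0 in mutant libraries, with mutant library 3 the highest, as for Tuba1b. Serpine2 had 4.87, 7.02 and 4.53 RPKM in control libraries and 8.02, 10.3 and 10.6 in mutant libraries, with control library 2 the highest control, as for Tubb5.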

How the data were processed

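The values analysed are RPKM as deposited, 1 table of 6 libraries and 27179 Entrez Gene entries, which the authors divided by gene length and library depth. Libraries came from amplified cDNA (Ovation RNA-Seq System V2) and were read from both ends on a HiSeq, per the labels' protocols. Per the submitters' processing notes, reads were placed on mm10, and their tools include FastQC and limma. The word subread stands in the column names, per the file headers. How reads were counted, on which annotation and strand, and what was done with reads that match several places is not given in the sources used here, which bears on near-identical tubulin genes. RefSeq (GRCm38.p6) gave symbols for 25275 entries.

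A limma fit (version 3.58.1, R 4.3.3) set mutant against control on log2(RPKM + 0.5), two-sided, with a mean-variance trend. Entries averaging 0.5 RPKM or more, 13463 in all, were tested, and Benjamini-Hochberg adjusted p-values under 0.05 were called. This scale understates the change of low genes. RPKM values are spaced by whole reads, which gave depth and the reads of every tested gene within 0.1 of a read. On simulated data this recovered the right reads for 98.2% of 400 entries. One read on 1 kb was worth 0.0277 to 0.0362 RPKM. Exact binomial intervals (scipy 1.17.1) and the floor of 3 reads cover counting error only. Sequence windows were counted over GENCODE M21 transcripts with Python 3.11.15.

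The members and lists were chosen with earlier results of these data known. Named genes were all members, other alpha and beta tubulin entries, the targeted locus, genes past the threshold in each microtubule list (or else the gene of lowest p), Tubg1, Stmn1, Map1b and Mapre1, and 3 genes most like each summed level. Alternatives were the pseudocount, filter, scaling, trend, voom on whole reads, a replicate block and leaving out each library. Some sequences and values are not reported here.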

Additional observations from a re-analysis of the deposited data

How the results depend on the processing

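Over 16 alternatives of the fit, Tuba1b passed the threshold in 16, with log2 fold changes from 1.72 to 2.16, and Tubb5 in 11, from 0.64 to 0.90. Tubb5 did not pass without a filter on low values (0.72), without a mean-variance trend (0.72), or without control library 1, mutant library 2 or mutant library 3. So the number of tubulin genes called was 1 in place of 2 without the filter and without the trend, and 1 to 2 with 1 library left out. Tuba1c passed in 0 of 16 (0.51 to 0.87). Genes called over the whole table, 422 in the reported fit, were 143 without the filter, 686 by voom and between 148 (without mutant library 2) and 1083 (without control library 3) with 1 library left out. Microtubule list genes called, 2 in the reported fit, were 0 without the filter, 1 at a minimum mean of 1 RPKM, 1 after quantile normalization, 5 by voom, and between 0 (without mutant library 2) and 10 (without control library 3) with 1 library left out. The signs that reversed, none of them called, were those of Tubb4b (0.10 with median-of-ratios scaling, 0.16 with quantile normalization, 0.09 with depth without mitochondrial ribosomal RNA, and between -0.17 and 0.13 with 1 library left out, 0.13 without control library 2 and 0.01 without mutant library 2) and Tubb6 (between -0.14 and 0.31 with 1 library left out, -0.14 without control library 3 and -0.12 without mutant library 2), besides Tubb4a outside the 10 genes (0.01 with quantile normalization and 0.08 without mutant library 1). The alpha sum had a log2 ratio of 1.19, which came to 0.20 without Tuba1b and 0.12 over every alpha entry. The cause of these shifts was not tested, except that leaving out libraries or adding genes changes what is fitted. Scaling moved the median of all genes from -0.12 to between -0.02 and -0.01, and the split from 178 higher and 244 lower to 282 and 154 (median of ratios), 264 and 163 (quantile) or 268 and 149 (without mitochondrial ribosomal RNA). Changes of tubulin genes are best read relative to that shift.

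With the replicate number as a replicate block, 393 genes were called, the tubulin genes called were again Tuba1b and Tubb5, and no other call among the tubulin genes changed. Same-numbered libraries correlated at 0.053, 0.157 and 0.153 in their deviations from the group means, each the highest for its number. The labels tie no number to a litter or day, and whether same-numbered libraries share 1 was not tested.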
